A study of Mus musculus with 2 samples.

Results

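EP300 binding sites of melan-a cells whose centre lies inside a region called for H3K4me1 are here called inside loci. Melan-a is an immortal line of mouse melanocytes, the pigment cells of the skin, and its strain is given as C57BL/6 Ink4a -/-, a loss of a cell cycle inhibitor locus that the EP300 and the H3K4me1 samples share. Chromatin immunoprecipitation with sequencing (ChIP-seq) was done with anti-p300 and with anti-H3K4me1 antibodies, 1 sample each, and the labels give no treatment. Input chromatin, taken before the precipitation, had no antibody. The files hold no expression values, so the cell type was not checked against marker genes. EP300 was deposited as 2 peak lists, 1 per replicate, with 8451 peaks from 31439027 filtered tags (sequenced reads) in replicate 1 and 10351 peaks from 32355042 in replicate 2. H3K4me1 was deposited as 1 list for its 2 replicates. Nothing says that the replicates were separate cultures, so their spread may be technical.

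Peaks of both replicates that overlap by at least 1 bp were joined into a shared EP300 locus. Within it, the pair of overlapping peaks with the most tags in sum was taken, and the middle of the stretch covered by both peaks served as the centre. Of 3573 shared loci, 438 (12.3%, exact 95% binomial interval 11.2% to 13.4%) had their centre between the start and end of an H3K4me1 region. They were set against 2224 gap loci (62.2%), whose centre lay outside all regions but had one to its left and one to its right, each at most 1000 bp away. For a further 678 loci such a region was found on 1 side only, and for 233 on neither. Positions of peaks and regions, and tags for the choice of the pair, chose the members, so the values that follow from position are descriptions. Loci of 1 sample are not replicates of a condition, so no p-value is given, and differences are read in each replicate list. Intervals cover counting error only.

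EP300 is a histone acetyltransferase and coactivator that transcription factors bring to enhancers and promoters. H3K4me1 is a histone mark of enhancers. At an active enhancer the bound factors usually sit on a stretch with few nucleosomes, and the marked nucleosomes stand on both sides of it. A list of marked regions therefore often shows a gap where the coactivator binds.

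Taken over all distances from a region edge, inside loci carried fewer EP300 tags and were less enriched than gap loci in both replicates. In replicate 1 the median peak had 53 tags at inside loci (quartiles 42 and 75.8), against 69 at gap loci (quartiles 51 and 97). In replicate 2 the medians were 59.5 tags at inside loci (quartiles 45 and 86.8) and 76 at gap loci (quartiles 57 and 107). The ratio of medians, inside over gap, was 0.768 in replicate 1 and 0.783 in replicate 2, a mean log2 ratio of -0.37 ± 0.02 (SD, n = 2 lists). The ranges between the quartiles overlapped widely in each list, so the tag count of a single locus does not tell its class. Near an edge the tag medians were close. Up to 100 bp from it they were 57.5 and 64.5 at 142 inside loci and 58 and 65 at 357 gap loci. From 101 bp to 300 bp they were 67 and 73 at 92 inside loci and 66 and 74 at 1212 gap loci. Tags are not scaled for length, and inside loci were the longer ones at both distances. Median locus length was 1290.5 bp at inside loci and 1192 bp at gap loci up to 100 bp from an edge. From 101 bp to 300 bp it was 1560.5 bp and 1249.5 bp. Farther from an edge the tag medians differed, with 45 and 54 at 63 inside loci and 80 and 88.5 at 606 gap loci from 301 bp to 600 bp.

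Fold enrichment, which MACS gives for the summit over the local control background, had a median of 6.46 at inside loci and 7.80 at gap loci in replicate 1. In replicate 2 the medians were 6.47 at inside loci and 7.13 at gap loci. The mean log2 ratio was -0.21 ± 0.09 (SD, n = 2 lists), so the difference was of the same sign in both lists and larger in size in replicate 1 (-0.27) than in replicate 2 (-0.14). Over all shared loci, 13.2% were at least 10-fold enriched in both lists. This held for 22 of the 438 inside loci (5.02%, interval 3.17% to 7.51%), below that background, and for 357 of the 2224 gap loci (16.1%, interval 14.5% to 17.6%). The percentile rank by significance within each list had medians of 65.3 and 73.2 at inside loci and 79.4 and 82.2 at gap loci. Up to 100 bp from an edge, fold enrichment had medians of 6.63 and 6.49 at inside loci and 7.1 and 6.98 at gap loci. From 101 bp to 300 bp the medians were 6.5 and 6.55 at inside loci and 7.695 and 7.3 at gap loci. Fold enrichment was thus lower at inside loci at both of these distances, where the tag medians were close.

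**Figure D1:**
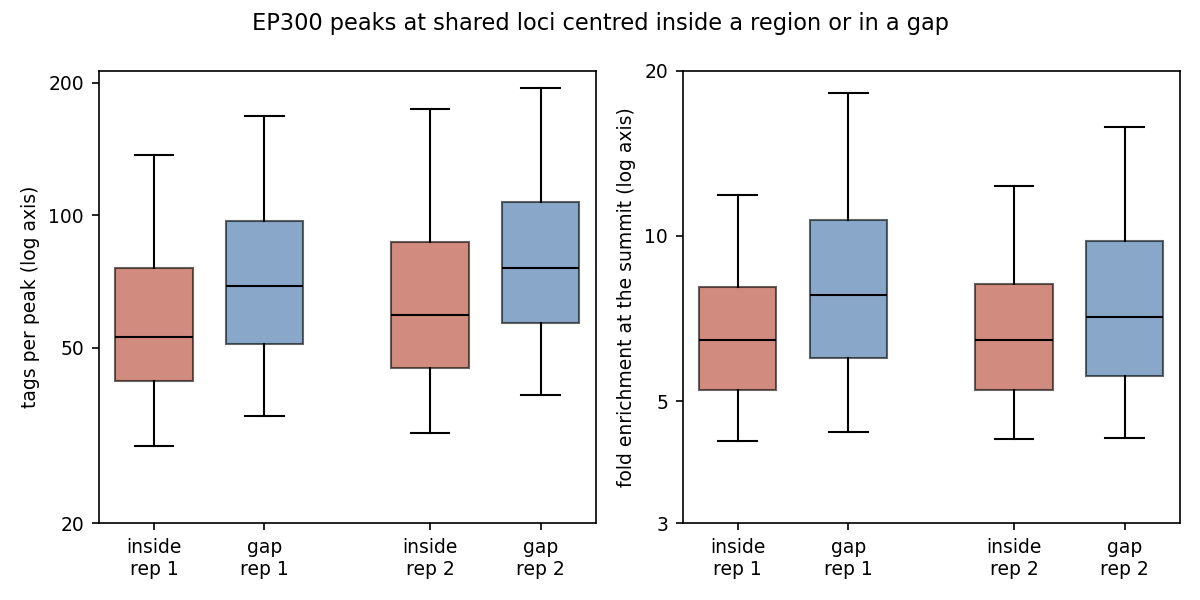
Tags per peak (left, log axis) and fold enrichment at the summit (right, log axis) at the 438 inside loci and the 2224 gap loci in each replicate list. Boxes span the quartiles, the line is the median and whiskers reach the 5th and 95th percentiles. Inside loci have the lower median in all 4 pairs, at 53 against 69 and 59.5 against 76 tags, and the boxes overlap.

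Peaks at inside loci were shorter, and tags were also lower per kb and at like length. Median peak length was 981 bp at inside loci and 1078 bp at gap loci in replicate 1, and 1071 bp at inside loci and 1156 bp at gap loci in replicate 2. With only the upper 50% of each EP300 list by significance, the mean log2 ratio of the median peak lengths was -0.00097, against -0.12 with all peaks. Tags per kb of peak had medians of 52.8 and 53.9 at inside loci, against 62.5 and 64.4 at gap loci. Among loci of 1000 bp to under 1500 bp, the medians were 50 and 58 tags at 191 inside loci and 64 and 70 tags at 1306 gap loci. The lower tag counts thus stood within a class of like length too. Among loci of at least 2000 bp, by contrast, replicate 1 had a median of 130 tags at 51 inside loci and 129 at 167 gap loci, while replicate 2 had 150 tags at inside loci and 168 at gap loci.

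Lengths were more spread at inside loci than at gap loci. Merged loci had a median length of 1229.5 bp at inside loci (quartiles 1014 bp and 1653 bp), against 1285 bp at gap loci (quartiles 1098 bp and 1570.5 bp). Loci under 1000 bp made up 22.6% (interval 18.8% to 26.8%) of inside loci and 11.4% (interval 10.1% to 12.8%) of gap loci. Loci of at least 2000 bp were also more frequent, at 51 of 438 (11.6%, interval 8.79% to 15.0%) of inside loci, against 167 of 2224 (7.51%, interval 6.45% to 8.68%) of gap loci. Both the short and the long end were thus fuller among inside loci than among gap loci. The 233 loci with no region within 1000 bp were like inside loci in this, with 21.5% under 1000 bp and 12.4% of at least 2000 bp. They were also closer to inside than to gap loci in median tags (55 and 64), in the share at least 10-fold enriched in both lists (6.87%) and in the share with summits within 100 bp (55.8%).

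The 2 replicates placed EP300 less exactly at inside loci than at gap loci. Their summits, the positions of highest tag density, lay a median of 78 bp apart at inside loci and 63 bp apart at gap loci. They were within 100 bp of each other at 59.6% of inside loci (interval 54.8% to 64.2%) and 67.1% of gap loci (interval 65.1% to 69.0%). The median summit distance was 97 bp at the 98 inside loci that reached past their region on both sides. It was 77 bp at the 192 that crossed 1 edge and 69 bp at the 148 wholly within their region. At the 233 loci with no region within 1000 bp it was 84 bp, so a larger distance was not particular to inside loci. Across inside loci the tags of the replicates had a Spearman rho of 0.652 (n = 438), and across gap loci 0.710 (n = 2224). These correlations are across sites of the same 2 libraries and are given as descriptions. Tags differed over 2-fold between the lists at 28 inside loci (6.39%) and 119 gap loci (5.35%), shares whose intervals overlap (4.29% to 9.11% and 4.45% to 6.37%).

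The covering regions were wide. Their median width was 1425 bp (quartiles 850 bp and 2050 bp), against 850 bp (quartiles 550 bp and 1250 bp) for the regions that flank gap loci and 500 bp for all 59923 regions. A centre falls into a wide region more often than into a narrow one by position alone, so the 1.68-fold ratio of covering to flanking width describes the rule. The 438 inside loci lay in 435 distinct regions. Only 3 regions held 2 inside loci each, on chromosomes 1, 2 and 15, with widths of 4250 bp, 7650 bp and 6550 bp.

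Covering regions ranked higher than flanking regions over all widths, but not among regions of at least 1000 bp. The authors' rank, as a percentile with 100 for the best region, had a median of 85.6 for covering regions and 79.5 for flanking regions. Among regions of 1000 bp to under 2000 bp it was 86.6 for covering regions and 89.4 for flanking regions, and among those of at least 2000 bp it was 95.7 for covering and 96.4 for flanking regions. Maximum log2 fold change of H3K4me1 had medians of 4.30 for covering and 4.41 for flanking regions of 1000 bp to under 2000 bp. Within both width classes the medians of covering regions were thus slightly below those of flanking regions.

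Within 3000 bp of the centre, H3K4me1 regions covered a median of 2400 bp at inside loci and 2150 bp at gap loci. Gap loci have a region within 1000 bp on each side by definition and inside loci need not, so the shares at these distances follow in part from the choice of loci. At gap loci the share inside a region peaked at 84.8% at 650 bp to the left and 84.0% at 700 bp to the right. At inside loci it was 71.7% at 650 bp to the left and 75.1% at 650 bp to the right. At 2000 bp to the left the curves were close, with 23.3% of inside loci and 22.5% of gap loci covered. At 2500 bp to the left inside loci were higher, at 22.8% against 17.4%. The values at 2500 bp to the right were 20.3% and 18.7%.

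**Figure D2:**
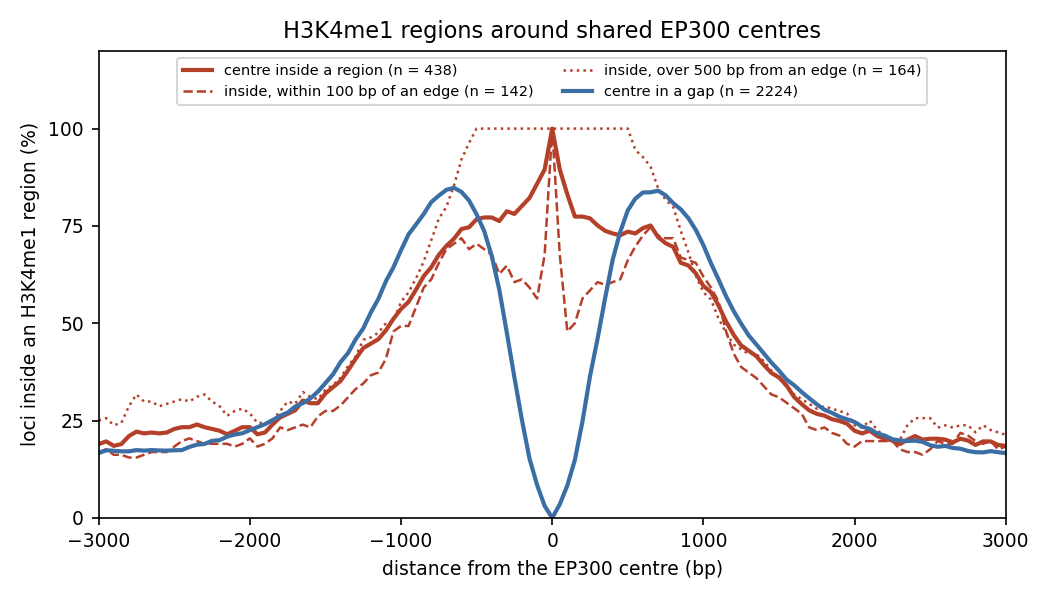
Percent of loci inside an H3K4me1 region by distance from the EP300 centre (bp), for the 438 inside loci, for those within 100 bp of an edge (n = 142), for those over 500 bp from an edge (n = 164), and for the 2224 gap loci. The values at 0 bp (100% and 0%), and those up to 500 bp for the dotted curve, are set by the choice of loci. Gap loci, whose choice asks for a region within 1000 bp on each side, reach 84.8% at 650 bp to the left, and inside loci, whose choice does not, are at 71.7% there.

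The place of the centre within its region differed between width classes. Over all inside loci the centre lay a median of 243 bp from the nearer edge (quartiles 62.3 bp and 703 bp) and 1037 bp from the farther one. As a percent of width, 0 at an edge and 50 in the middle, the median was 24.2, and 223 of the 438 centres (50.9%, interval 46.1% to 55.7%) lay closer to an edge than to the middle. Over all widths, centres were thus about as common near the edges as near the middle. The median position was 18.4% where the region was under 500 bp wide (46 loci), 11.7% from 500 bp to under 1000 bp (95 loci), 21.5% from 1000 bp to under 2000 bp (172 loci) and 32.0% at 2000 bp or more (125 loci). It was thus lowest in the second class and rose with width from there. The nearer edge was on the left in 214 of 438 cases (48.9%, interval 44.1% to 53.6%).

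Many inside loci were close to being gap loci. Of the 438, 92 (21.0%) lay within 50 bp of an edge, which is the grid of the H3K4me1 region edges, and 142 (32.4%) within 100 bp. Beyond the nearer edge of those 142, another region followed within 1000 bp in 118 cases (83.1%, interval 75.9% to 88.9%), after a gap with a median width of 350 bp. For the 164 loci over 500 bp from an edge this was so in 53 cases (32.3%, interval 25.2% to 40.1%). Loci within 50 bp inside an edge had median tags of 58 and 70, and the 156 loci within 50 bp outside an edge had 58 and 65.5.

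The loci nearest to the border of the rule varied in tags on both sides of it. Just inside, the centre of the locus at chromosome 13, 29641341 to 29643894 (mm9), coincided with an edge, and the locus had 138 and 77 tags. At chromosome 4, 80433740 to 80435489, and chromosome 5, 105970052 to 105970911, the centre also coincided with an edge, with 127 and 200 tags at the first and 50 and 38 at the second. At chromosome 8, 17586947 to 17588112, it was 1 bp inside (68 and 44 tags). In replicate 1 these 4 loci had 50 to 138 tags, and in replicate 2 they had 38 to 200. Just outside, the locus at chromosome 14, 65607130 to 65608493, had 82 and 101 tags, and that at chromosome 4, 70126229 to 70127622, had 66 and 78, each 1 bp from a region. At chromosome 11, 5695314 to 5696374 (71 and 43 tags), and chromosome 9, 69320265 to 69321272 (34 and 46 tags), the distance was 2 bp. All 4 of the loci just outside were gap loci.

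Inside loci fell into 3 arrangements by the edges of locus and region. At 98 (22.4%) the locus spanned the whole region and reached past it on both sides. At 192 (43.8%) it crossed 1 edge, and at 148 (33.8%) it lay wholly within the region. Edges of loci and regions define these arrangements, so widths and lengths differ among them by construction. Covering regions had a median width of 550 bp where the locus spanned them, 1275 bp where it crossed 1 edge and 2250 bp where it lay within. Loci had median lengths of 1794.5 bp, 1295 bp and 1067 bp in the same order.

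**Figure D3:**
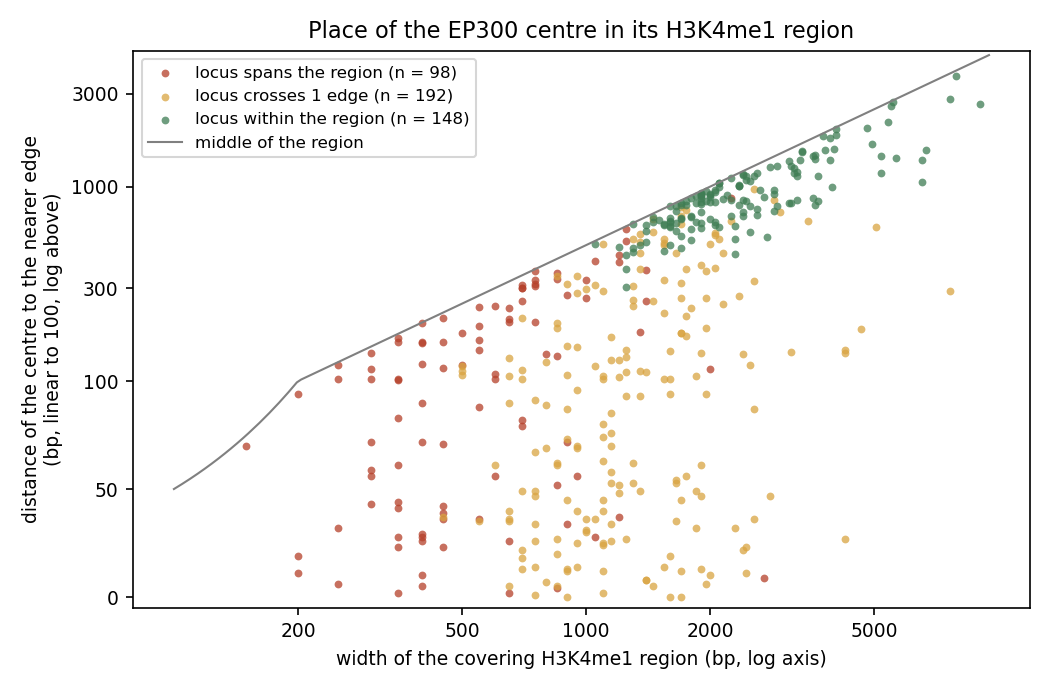
Width of the covering H3K4me1 region (bp, log axis) against the distance of the EP300 centre to the nearer edge (bp, linear to 100 and log above) for each of the 438 inside loci, coloured by arrangement. The line marks the middle of a region. Loci that span their region (n = 98) sit at the left, over a median width of 550 bp, and loci within the region (n = 148) at the upper right, over a median width of 2250 bp.

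Tags per peak differed between the arrangements, in the same order in both replicates. Loci that spanned the region had median tags of 75 and 85 in replicates 1 and 2. Loci that crossed 1 edge had 56 and 62.5, and those within the region had 45 and 53.5. Tags are not scaled for length, and median locus length has the same order through the edges that define the arrangements. The order in tags was thus not separated from that in length. Fold enrichment at the summit had medians of 6.65 and 6.28 where the locus spanned the region, 6.51 and 6.49 where it crossed 1 edge, and 6.36 and 6.49 where it lay within. The order seen in tags was thus found in fold enrichment in replicate 1, with small steps, and not in replicate 2.

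The summits, which the rule did not use, were set against the centre. The replicate 1 summit lay in the covering region at 290 of the 438 inside loci (66.2%, interval 61.6% to 70.6%) and the replicate 2 summit at 282 (64.4%, interval 59.7% to 68.9%). At gap loci the summit lay in the same gap as the centre at 94.8% in replicate 1 and 94.4% in replicate 2. The summit thus lay outside the region or gap of the centre more often at inside loci. The centre chose the class, and 142 of the 438 inside centres lay within 100 bp of an edge, against 357 of the 2224 gap centres. These shares therefore follow in part from the choice of loci. Both summits were in the covering region at 244 inside loci (55.7%), 1 of them at 84 (19.2%) and neither at 110 (25.1%).

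Summits outside the covering region were mostly in a gap between H3K4me1 regions. Of the 148 replicate 1 summits outside, 118 (79.7%, interval 72.3% to 85.9%) lay in an H3K4me1 gap, 18 had a region on 1 side and 12 were in another region. In replicate 2 the numbers were 127 of 156 in a gap (81.4%, interval 74.4% to 87.2%), 17 with a region on 1 side and 12 in another region. None lay over 1000 bp from all regions in either list.

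Loci with neither summit in the region carried the more tags. They had medians of 83.5 and 93.5 tags and 7.83-fold and 7.13-fold enrichment in replicates 1 and 2 (n = 110). Loci with both summits in the region had 47 and 55 tags and 6.36-fold and 6.38-fold enrichment (n = 244). The first group had a median locus length of 1664 bp and a median covering width of 925 bp, and the second 1089 bp and 1875 bp. The 110 loci were thus the longer ones, and gap loci of 1500 bp to under 2000 bp had medians of 97 and 108 tags. Their fold enrichment was close to that of all gap loci (7.80 and 7.13).

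By arrangement, the summit lay in the covering region at 34 and 33 of the 98 spanning loci in the 2 lists (34.7% and 33.7%), and at 108 and 101 of the 192 loci that crossed 1 edge (56.3% and 52.6%). It is in the region by definition at all 148 loci within it. At 51 of the 98 spanning loci neither summit was in the region, and at 14 of these the replicates had their summits on opposite sides of it. Of the spanning loci, 49 of 98 (50.0%) had further H3K4me1 regions within 1000 bp of both edges of the covering region, against 20 of the 148 loci within a region (13.5%).

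The 12 inside loci with the most tags were chosen by rule from both lists in sum. Of these, 11 were at least 2000 bp long, 8 spanned the region, 5 were on chromosome 6, and 10 had neither summit in the region. Next to the first, which stood apart, came the locus at chromosome 10, 12825053 to 12828883, with 255 tags in replicate 1 and 349 in replicate 2 (13.1-fold and 16.1-fold). It reached over a region of 1250 bp that ranked 328 of 59923. Its summits were 895 bp and 822 bp to the left of the centre, in the gap between this region and the next, which ended at -1193 bp. The EP300 maximum was thus beside the marked region, although the midpoint of the 3831 bp locus was on it.

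The same layout recurred. The locus at chromosome 15, 63557757 to 63560764, had 258 and 306 tags, a covering region of 1200 bp, and summits 812 bp and 830 bp to the left, past a region edge at 756 bp. At chromosome 6, 127284958 to 127288409 (282 and 248 tags), the covering region was 1050 bp wide and the summits were 537 bp and 540 bp to the right, past an edge at 415 bp. On chromosome 2, the locus at 113478800 to 113482402 (209 and 306 tags) had summits 806 bp and 836 bp to the left, past an edge at 622 bp. In each of these 3 the replicates placed the summit on the same side and within 30 bp of each other.

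Others of the 12 spanned a narrow region. At chromosome 1, 153629423 to 153631763, 205 and 244 tags (15.5-fold and 13.3-fold) lay over a region of 350 bp that ranked 42184. At chromosome 6, 17465307 to 17467442, 163 and 216 tags lay over one of 400 bp that ranked 40601. The loci at chromosome 12, 103030931 to 103033448 (195 and 242 tags), and chromosome 6, 140494921 to 140497854 (182 and 196 tags), spanned regions of 700 bp and 450 bp. These 4 regions were below the median covering width of 1425 bp, and neither summit lay in them. At the last of these loci the replicates had their summits on opposite sides of the region.

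The remaining 3 of the 12, apart from the first, crossed 1 edge. They were at chromosome 6, 100748816 to 100751747, with 261 and 338 tags, at chromosome 2, 173244558 to 173247424, with 208 and 262 tags, and at chromosome 6, 88334061 to 88336417, with 200 and 188 tags. The replicate 1 summit of the locus on chromosome 2 was in the covering region, and the other 5 summits were not.

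The first of the 12, at chromosome 15, 78989191 to 78990279, had 1015 tags in replicate 1 and 37 in replicate 2 (35.6-fold and 6.21-fold), a tag ratio of 27.4. At every other inside locus the ratio of replicate 1 over replicate 2 was at most 2.76, and the lowest was 0.28. With 37 tags its replicate 2 peak was below the lower quartile of inside loci in that list. It stands among the 12 through 1 replicate alone. It was 1089 bp long and lay within a region of 2700 bp, with both summits in the region, and it was the only one of the 50 inside loci with the most tags that lay wholly within its region. Of those 50, 28 spanned the region and 21 crossed 1 edge.

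**Figure D4:**
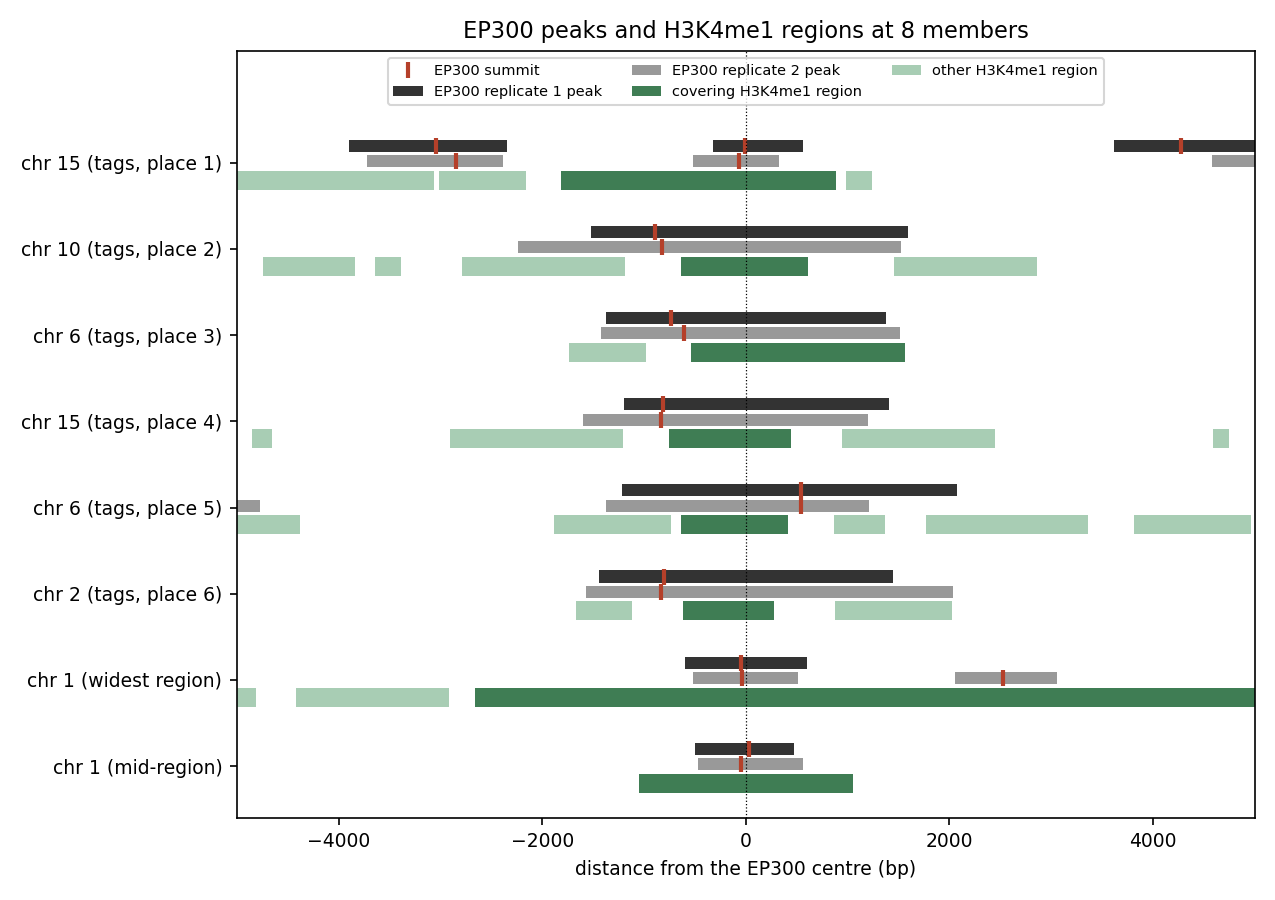
EP300 peaks of replicates 1 and 2 with their summits, and H3K4me1 regions, by distance from the EP300 centre (bp) at 8 inside loci: the 6 with the most tags in sum (place 1 to 6), the one in the widest region and the one nearest to the middle of a region over 2000 bp wide. At places 2 to 6 both summits lie beside the covering region, for example at 895 bp and 822 bp to the left at place 2, and in the other 3 they lie in it.

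Loci in wide regions had tags close to those of inside loci as a whole, with medians of 51 and 59 where the region was at least 2000 bp wide. The widest covering region, of 9050 bp (rank 105), was on chromosome 1 and held the locus at 36687866 to 36689064, with 77 and 60 tags (9.30-fold and 9.53-fold) and both summits in the region. The next, of 7900 bp, held chromosome 1, 78159253 to 78160888, with 92 and 59 tags (5.09-fold and 7.19-fold). The third, of 7650 bp, held chromosome 2, 38386023 to 38387045, with 38 and 56 tags (6.67-fold and 9.38-fold). All 3 of these centres were over 2500 bp from an edge, at 2666 bp, 3692 bp and 2834 bp, and all 6 summits were in the region.

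Nearest to the middle of a region over 2000 bp wide were 4 further loci. At chromosome 1, 182163245 to 182164310, the centre was 1047 bp and 1052 bp from the edges, and the locus had 77 and 71 tags (11.3-fold and 8.17-fold). At chromosome 2, 125755405 to 125756244, there were 36 and 34 tags, and at chromosome 9, 41324551 to 41325721, 60 and 86 tags. At chromosome 11, 97668933 to 97670584, 62 and 91 tags (10.9-fold and 9.45-fold) lay in a region of 5550 bp that ranked 181. Each of the 8 summits was in its region, and the regions reached 2100 bp, 2100 bp, 2250 bp and 5550 bp.

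H3K4me1 was seldom at its highest near the EP300 centre in such regions. For each region the authors' list gives the position of its highest score, which the rule did not use. Among the 148 loci within a region, this position was within 200 bp of the EP300 centre in 11 cases (7.43%, interval 3.77% to 12.9%), although 18.1% of the regions' length, on average, was that close. Its median distance from the centre was 518 bp. Among loci that crossed 1 edge, 21 of 192 (10.9%, interval 6.90% to 16.2%) had the highest score that close, against 25.1% of the length. Both shares were below the share of length. The score need not be spread evenly up to the edge of a region, and loci that cross 1 edge have their centre near an edge (median 94 bp), so the share of length is a scale and no expected value.

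At spanning loci the share was above that of the length. The highest score was within 200 bp of the centre at 69 of the 98 (70.4%, interval 60.3% to 79.2%), against 60.1% of the length. Their summits, as shown above, were mostly outside the region. Over all 438 inside loci the highest score was on the wider side of the centre in 360 cases (82.2%, interval 78.3% to 85.7%), while that side held 76.3% of the length. At the 4 mid-region loci named above it was 572 bp, 418 bp, 338 bp and 1547 bp from the centre.

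**Figure D5:**
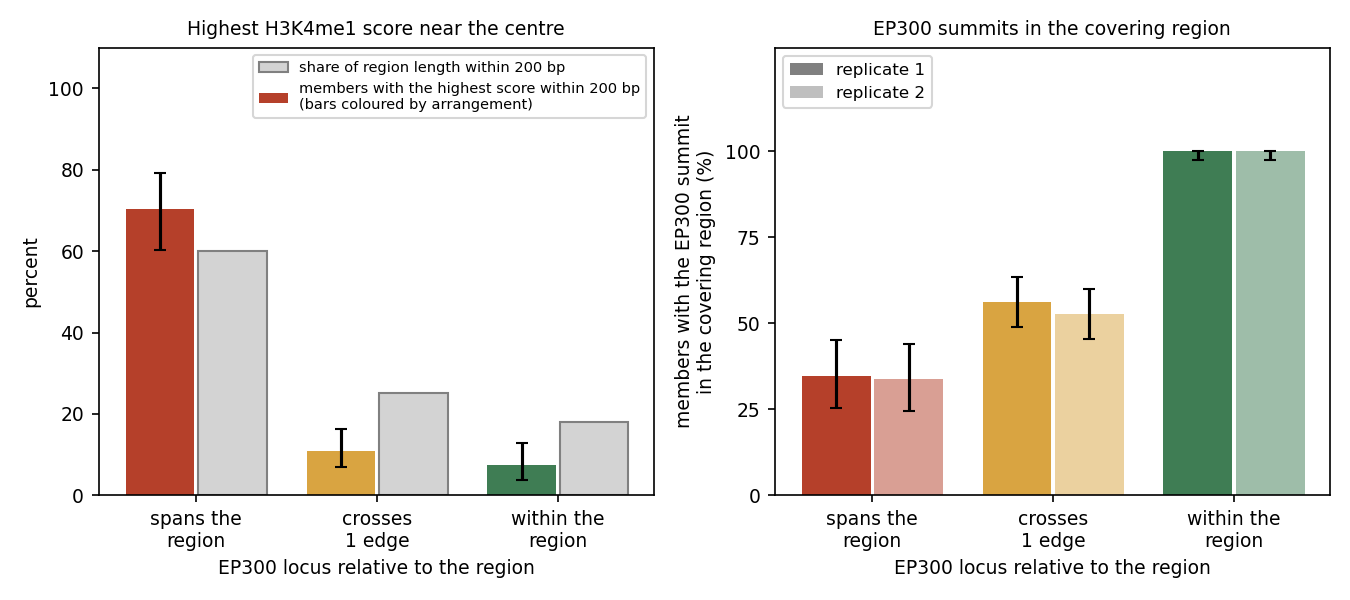
Left, percent of inside loci with the highest H3K4me1 score within 200 bp of the EP300 centre (coloured bars) beside the mean percent of the covering region's length that is that close (grey bars), by arrangement (n = 98, 192 and 148). Right, percent with the EP300 summit in the covering region in each replicate list. Error bars are exact 95% binomial intervals. The left bar is above the grey one for spanning loci (70.4% and 60.1%) and below it for loci within the region (7.43% and 18.1%).

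Inside loci had another shared EP300 locus nearby more often than gap loci. The next centre was within 10000 bp at 125 of the 438 (28.5%, interval 24.4% to 33.0%), against 455 of the 2224 gap loci (20.5%, interval 18.8% to 22.2%). Median distances were 34288.5 bp for inside loci and 55167.5 bp for gap loci. Neither value was computed over all shared loci or for the other classes, so a trait particular to inside loci is not shown. More than 1 peak of a list was merged at 14 inside loci (3.20%, interval 1.76% to 5.30%) and 30 gap loci (1.35%, interval 0.912% to 1.92%). The share over all shared loci, 2.02%, was within the interval of inside loci. Among the 233 loci with no region within 1000 bp it was 5.58%.

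Inside loci were found on 20 chromosomes. Chromosome 6 held the most, 42 of its 236 shared loci (17.8%, interval 13.1% to 23.3%), against 12.3% over all. The other chromosomes lay between 3.85% (1 of 26, interval 0.0973% to 19.6%, on X) and 16.4% (32 of 195 on each of chromosomes 8 and 15). Of the 20 intervals, only that of chromosome 6 left out the overall share; this chromosome was singled out after its values were seen, and no test was made.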

How the data were processed

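EP300 peaks were called by the authors with MACS 1.4.1 (20110627), each replicate against its own control, per the file headers (p threshold 1.00e-05, band width 300 bp, fragment length 200 bp, at most 2 duplicates). The deposited EP300 lists give the count of tags per peak after duplicate filtering, a significance score (10 times −log10 of the p-value), the fold enrichment ratio at the summit and a false discovery rate in percent, per the file headers. The deposited H3K4me1 list gives a rank, a score, log2 fold changes over control, −log10 p-values that stop at 100, and a false discovery rate as a fraction, per the file headers. The name of its caller, and that of the aligner, was not given in the sources used here. The build is mm9, per the submitters' processing notes. Controls held 20010848 and 24669749 filtered tags for replicates 1 and 2, per the file headers.

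Loci were built with Python 3.11.15, pandas 2.3.3, numpy 2.4.6 and scipy 1.17.1, and drawn with matplotlib 3.10.9. The rule for loci was run on simulated data with 1 peak per locus and list, at the same position in both lists. Merged peaks, the choice of the pair and centres close to an edge were not simulated. Values are medians, Clopper-Pearson intervals (95%) and ratios in each list, without p-values. Loci named singly were the 12 with the most summed tags, the 3 in the widest regions, the 4 nearest to an edge from either side and the 4 nearest to the middle of a region over 2000 bp wide. The members and lists were chosen with earlier results of these data known. Alternatives changed the centre, the pair, the overlap, the lists' thresholds, the edge margin, the joining and reach of regions, and the replicates. Sequences and genes at the loci were not analysed here.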

Additional observations from a re-analysis of the deposited data

How the results depend on the processing

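Over 11 alternatives, 34 of 64 values stayed close (the share within its exact 95% interval, the width within 50 bp, the others within 1 SD between replicates), 30 moved and 0 reversed. The share and the position of the centre have no sign, so they could not reverse. With all values as given above, the share of inside loci was 12.3%, and the log2 ratios of inside over gap loci were -0.37 for tags, -0.21 for fold enrichment and -0.12 for peak length. The log2 ratio of covering over flanking width was 0.75 and the position of the centre 24.2%. With the centre at the mean of the summits, the share was 11.0%, tags -0.49, length -0.17 and position 26.4%. With the upper 50% of each EP300 list they were 10.9%, -0.25, -0.00097 and 21.6%, and width 0.69. With the upper 50% of H3K4me1 regions they were 10.7%, -0.46, -0.17 and 26.3%, and width 0.68. With centres at least 100 bp from an edge they were 8.28%, -0.43, -0.15 and 34.3%, and width 1.02. With regions up to 100 bp apart joined, width was 0.91 and position 29.2%. With the pair chosen by significance, tags were -0.39. Without replicate 1 or replicate 2, every peak of the other list was a locus, shared or not, centred at its own midpoint (10351 and 8451 loci). In these other sets of loci, the share was 12.9% to 15.5%, tags -0.45 to -0.39, length -0.16 to -0.15, width 0.58 and position 21.8% to 23.6%. Fold enrichment moved under none of the alternatives, but its SD between replicates, 0.09, was wider than the 0.02 of tags and of length. With the centre at the mean of the summits it was -0.28. Leaving out loci whose tags differ over 2-fold between the lists, chosen after the data were seen, moved none of the values. The cause of these moves was not tested. No paired analysis was possible because the 2 EP300 lists belong to 1 group and no test was made. H3K4me1 has 1 list, so its error is unknown, and its edges lie on a grid of 50 bp, so centres within that distance of an edge have no firm class. Peaks under the callers' thresholds are not in the lists.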
